A study of Mus musculus with 12 samples.

Results

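The 40S subunit of the cytosolic ribosome holds the 18S rRNA and a set of small proteins, most of which carry the gene symbol Rps. Described here are the array probes of those genes in 3T3-L1 cells, before and after adipogenic induction. A probe was counted when its transcript accession belonged to a protein-coding gene named Rps with a number, with or without the letter a, x, l or y, or to Rpsa. The S6 kinases (Rps6k), the mitochondrial Mrps genes and pseudogenes do not belong to the set. The rule found 30 genes with 40 probes, among 41174 probes in all. Those probes carried 32301 different gene symbols or, where a probe had no symbol, transcript accessions. Of these genes 21 had 1 probe and 9 had several.

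3T3-L1 is a line of mouse embryonic fibroblasts, the preadipocytes of this study, that turns into adipocytes in culture after a hormonal stimulus. Cells were lysed at 0 h, grown in newborn bovine serum without inducer, or 6 h after a change to medium with 0.5 mM isobutylmethylxanthine (IBMX, a phosphodiesterase inhibitor), 1 µM dexamethasone (a glucocorticoid), 5 µg/ml insulin and fetal bovine serum, with serum at 10% at both times. Each lysate was separated on a sucrose gradient, where ribosome-laden mRNA sinks further than free mRNA. Gradient fractions 5 to 7 were pooled as the non-polysomal and fractions 9 to 11 as the polysomal fraction, which gives 4 groups of 3 arrays each. The change of hormones and the change of serum cannot be told apart in this design. All arrays came from a single cell line, and the methods describe the replicates as biological.

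Ribosomal proteins are needed in equal numbers, and growing cells make them in very large amounts. Their mRNAs in vertebrates typically start with a cytosine inside an unbroken stretch of pyrimidines, the terminal oligopyrimidine (TOP) tract. TOP mRNAs are known to shift between free particles and polysomes as growth signals such as insulin and serum change, through the kinase complex mTORC1 and the RNA-binding protein LARP1. The comparison asks which of these mRNAs gained in polysomes relative to the free fraction after induction, and whether they did so as a group.

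The start regions of several members are shown for their runs of pyrimidines. The sequences are from RefSeq (GRCm38.p6) and run 5′ to 3′ on the strand of the gene, and capitals mark the longest run of C or T within 20 bases before to 50 bases after an annotated start. Shown first are members whose run lies at the annotated start, then members whose array values are given in full further on, whose runs lie off the annotated start and need not begin with C. The Rps25 run is cut at the edge of that window, and the pyrimidines ct just before the capitals continue it.
Rps18 (chr17:33955647-33955674, minus strand): acttccgCTCTCTCTTCCacaggaggcc
Rps6 (chr4:86857348-86857375, minus strand): agtcgggCCTCTTTTTCgtgacgcctcc
Rps10 (chr17:27635227-27635254, minus strand): gcgcacgCCCCTTCCTTTCCagcctccg
Rps27 (chr3:90213630-90213657, minus strand): gctttcgCTCCTTTCCggcggtgacgac
Rps25 (chr9:44407687-44407714, plus strand): ccgggctTCCTTTTTTTCCgacatctta
Rps21 (chr2:180257401-180257428, plus strand): aggcacgagctaCTTCCTTTCTgcgctc
Rpsa (chr9:120127779-120127806, plus strand): ccgcccgTCCTTTCgcgctacccgggga
Rps27l (chr9:66946067-66946094, plus strand): ctctccaCTCCTCCCCgccgcctctatc

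A start region was at hand for 23 of the 30 genes. A run of at least 9 pyrimidines stood in that window in 17 of the 23 (73.9%), in 30 of 38 large subunit protein genes (78.9%) and in 19.7% of 17492 protein-coding genes. The longest run had a median of 10 bases in the members and of 6 bases over all genes. Annotated starts can lie some bases away from the start a cell uses, so a run in this window is a description of the letters and not a mapped TOP tract. M-values, a measure defined in the next paragraph, were averaged here over the probes of a gene. The 17 members with such a run had means of -0.38 to 2.15 with a median of 1.71. The 6 without it ranged from 1.47 to 2.20 with a median of 1.62, so the ranges overlapped.

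Signals are given as log2 of the background-subtracted intensity, with each array scaled by the spike-ins, viral RNAs added per amount of RNA. They measure a transcript relative to the RNA of its pool and not per cell, and fewer cells with an mRNA and less of it per cell cannot be told apart. The M-value is the change from 0 h to 6 h in the polysomal fraction minus the change in the non-polysomal fraction, on the log2 scale. A probe was called when the adjusted p of limma over all probes was below 0.05 and the difference was more than 2-fold. The 5 comparisons reported here come from a single fit and share their arrays, so they are not independent of each other.

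Non-polysomal arrays had a 75th percentile of intensity between 223.9 and 266.6, and polysomal arrays between 400.8 and 527.8. Between 55.7% and 60.8% of the probes of an array were well above background, and no member spot was saturated or marked as an outlier. Of the member probes, 39 were well above background on all 12 arrays. The exception was the dim Rps15a probe A_52_P491433, which was well above background on 1 of 3 polysomal arrays at 0 h. Replicates differed little, with a median SD of 0.06 over all member probes. The median SD was 0.11 for the other probes that were well above background on every array of some group, a weaker condition. All 8 preadipocyte or fibroblast markers, among them Vim, Col1a1 and Dlk1, were well above background on every array. Of 5 mature adipocyte markers 4 were too, and leptin (Lep) was not on any array. The summed intensity of the adipocyte markers over 7 probes spanned 39900 to 41600 on the non-polysomal arrays of 0 h and 83400 to 99200 on the polysomal arrays of 0 h. The same sums at 6 h were 37900 to 38900 and 165000 to 172000. The fibroblast markers, over 13 probes, summed to 649000 to 672000 and 1000000 to 1090000 at 0 h and to 586000 to 604000 and 1520000 to 1550000 at 6 h, in the same order. The part of adipocytes in the results was not tested. The spike-ins were dimmer on the polysomal arrays at 6 h than on the others, with an offset of -0.35 ± 0.14 (SD, n = 3) against 0.10 to 0.14 in the other groups, and the scaling adds 0.50 to every M-value.

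Judged by the M-value, the small subunit mRNAs shifted towards polysomes almost as a block. A move of existing mRNA and a rise of new mRNA cannot be told apart here, since no unfractionated RNA was on the arrays. The M-value was called higher for 38 of 40 probes, from 29 of the 30 genes, and for none was it called lower, where 12.1% of all probes were called higher and 1.32% lower. The median M-value was 1.70 in the members and 0.49 over all probes, so the members lay 1.21 above. The count was 16 (1 called lower) after quantile normalization, where 3.08% of all probes were called higher and 3.82% lower. It was 2 after normexp background correction over all spots, where 0.243% of all probes were called higher. With a line through the spike-ins 39 members and 63.4% of all probes were called higher, and the members lay only 0.23 above all probes. The sign of M was the same in all 3 replicate numbers for every member, positive for 39 probes and negative for the remaining one, Rps27l. The exceptions to the call were Rps27l and the dimmer of the Rps25 probes. Among the called members described here by name, the M-value ran from 1.01 for an Rps21 probe (2.02-fold) to 2.40 for the Rpsa probe A_52_P372165 (5.28-fold). The shift was much the same in bright and dim members, with a median of 1.68 in the 20 brighter and 1.77 in the 20 dimmer probes.

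**Figure D1:**
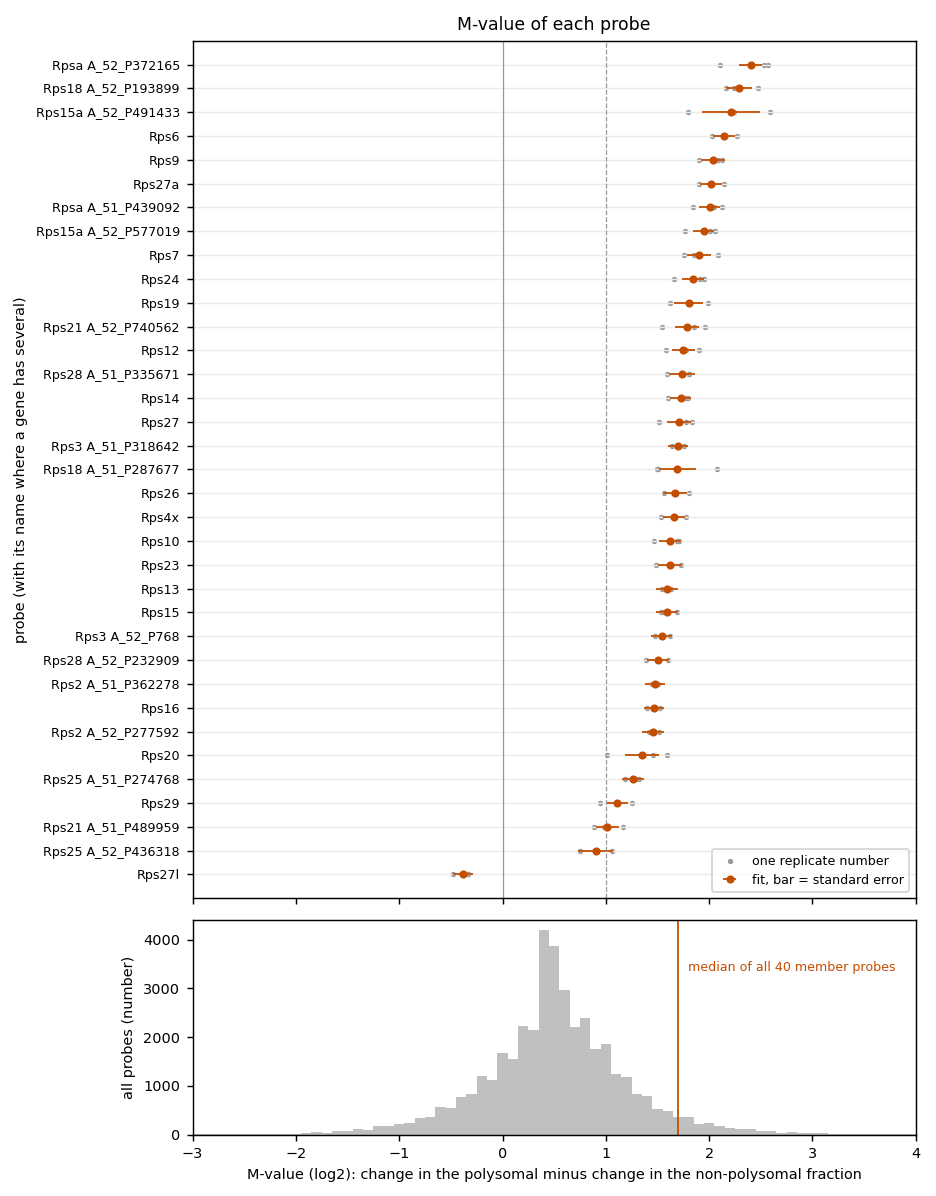
M-value of 35 small subunit protein probes (log2; orange points are the fit, bars its standard error, grey points the 3 replicate numbers), above the distribution of M over all probes. The members gather around their median of 1.70, to the right of the bulk of probes with its median of 0.49, and Rps27l stands alone at -0.38.

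Among the 4 groups, the polysomal fraction at 0 h was the lowest group for all 40 probes. The polysomal fraction at 6 h was the highest for 27 probes and the non-polysomal fraction at 6 h for the other 13. Which group was highest depended on the scaling, since the polysomal fraction at 6 h was highest for 2 probes with 75th percentile scaling, 10 with quantile normalization, 19 with the brighter and 29 with the dimmer spike-ins. The polysomal fraction at 0 h was lowest for at least 39 probes under each of these. At every member probe the 3 polysomal arrays at 6 h lay above the 3 at 0 h, which held for 59.6% of all probes. The polysomal signal at 0 h lay below the non-polysomal signal without overlap at all 40 probes, against 16.0% of all probes.

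**Figure D2:**
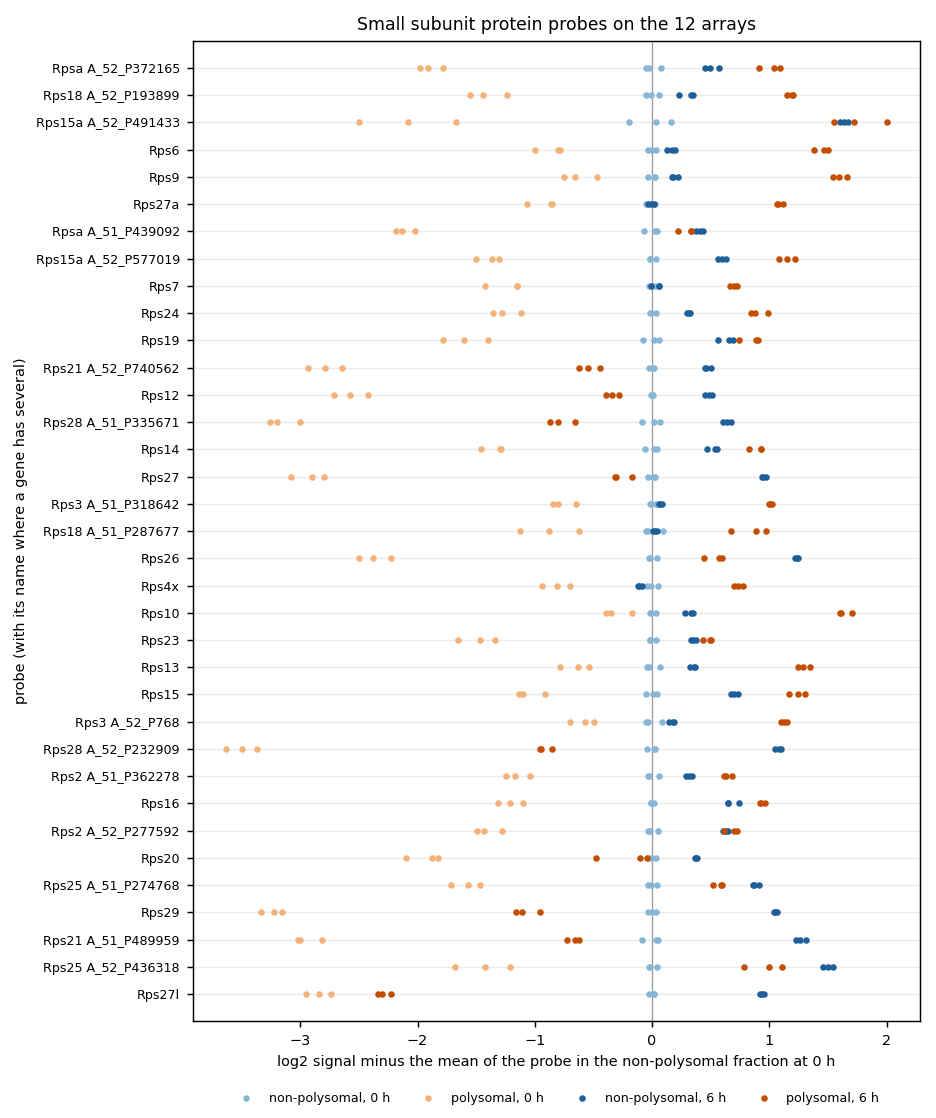
Log2 signal of 35 member probes on the 12 arrays, each probe relative to its own mean in the non-polysomal fraction at 0 h, ordered by M-value (points are single arrays, colored by group). The pale orange points of the polysomal fraction at 0 h are leftmost in every line, and the dark orange points of the polysomal fraction at 6 h lie to the right of them throughout.

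Within the polysomal fraction 39 of 40 probes rose from 0 h to 6 h and none fell, where 19.2% of all probes were called higher and 5.00% lower. The median rise was 2.19 on the log2 scale (4.57-fold), where the median of all probes was 0.54, and the range was 0.56 to 3.85. The probe at the top was the dim Rps15a probe, whose level at 0 h was mostly not well above background, and next came Rpsa A_52_P372165 with 2.91 and Rps26 with 2.90 (7.49-fold). Rps26 lies near the mRNA exit of the 40S subunit. Rps27l, with 0.56 and an adjusted p of 7.11e-05, did not reach 2-fold.

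The non-polysomal fraction moved far less. There 6 of 40 probes rose and none fell, where 8.12% of all probes were called higher and 8.11% lower, and the median change was 0.44. Those 6 probes were Rps26 with 1.23, Rps29 with 1.05, Rps28 A_52_P232909 with 1.08, Rps21 A_51_P489959 with 1.27 and the dim probes of Rps25 and Rps15a with 1.50 and 1.64. A further 23 probes were higher with an adjusted p below 0.05 and by less than 2-fold. The remaining 11 probes, among them those of Rps3, Rps4x, Rps6, Rps7, Rps9 and Rps27a and 1 of the Rps18 probes, had changes of -0.10 to 0.19 with adjusted p above 0.05. For these probes the difference between the fractions' changes came almost whole from the polysomal side, as with Rps4x, whose changes were 1.55 in the polysomal and -0.10 in the non-polysomal fraction. The non-polysomal mean at 6 h was below that at 0 h for only 3 members.

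In resting cells every member gave less signal in the polysomal than in the non-polysomal fraction. The polysomal signal at 0 h was lower by call at 29 of 40 probes, from 23 genes, where 9.83% of all probes were called lower. No member was called higher, against 27.3% of all probes, and all 40 were lower with an adjusted p below 0.05. The median difference, polysomal minus non-polysomal, was -1.40, and that of all probes was 0.15. Members differed widely in this starting position. Rps10, a protein of the 40S head that is ubiquitinated when ribosomes collide, was nearest to balance with -0.30, and Rps3, at the mRNA entry, had -0.59 and -0.76 at its probes. At the other end stood Rps28 with -3.15 and -3.50, an 8.90-fold and an 11.3-fold excess in the non-polysomal fraction.

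At 6 h the group no longer stood on a single side. By the call 6 probes were higher in the polysomal fraction, where 37.3% of all probes were, and 7 were lower, where 6.42% of all probes were. The median difference was 0.35, below the 0.68 of all probes. Among the 6 higher probes were those of Rps9 with 1.41, Rps10 with 1.32, Rps6 with 1.28 and Rps27a with 1.09. Rps27a is made as a fusion with ubiquitin. This split depended on the scaling. Scaling to the 75th percentile gave 0 higher and 19 lower (12.3% and 22.2% of all probes), and quantile normalization 0 and 14 (15.6% and 13.6%). The brighter spike-ins gave 1 and 9 (28.5% and 8.73%), and the dimmer spike-ins 15 and 5 (49.1% and 4.69%).

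The 7 probes that stayed lower in polysomes at 6 h belonged to Rps21, Rps27, Rps27l, Rps28 and Rps29. The same 5 genes had the lowest differences at 0 h, between -2.79 and -3.50. As background, they encode the smallest proteins among the members, and coding length was not measured here. All but Rps27l still shifted, with M-values of 1.01 and 1.79 for Rps21, 1.71 for Rps27, 1.50 and 1.74 for Rps28 and 1.11 for Rps29. Next in order at 0 h came Rps12 with -2.57 and Rps26 with -2.37, and both remained below balance at 6 h with -0.82 and -0.70.

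**Figure D3:**
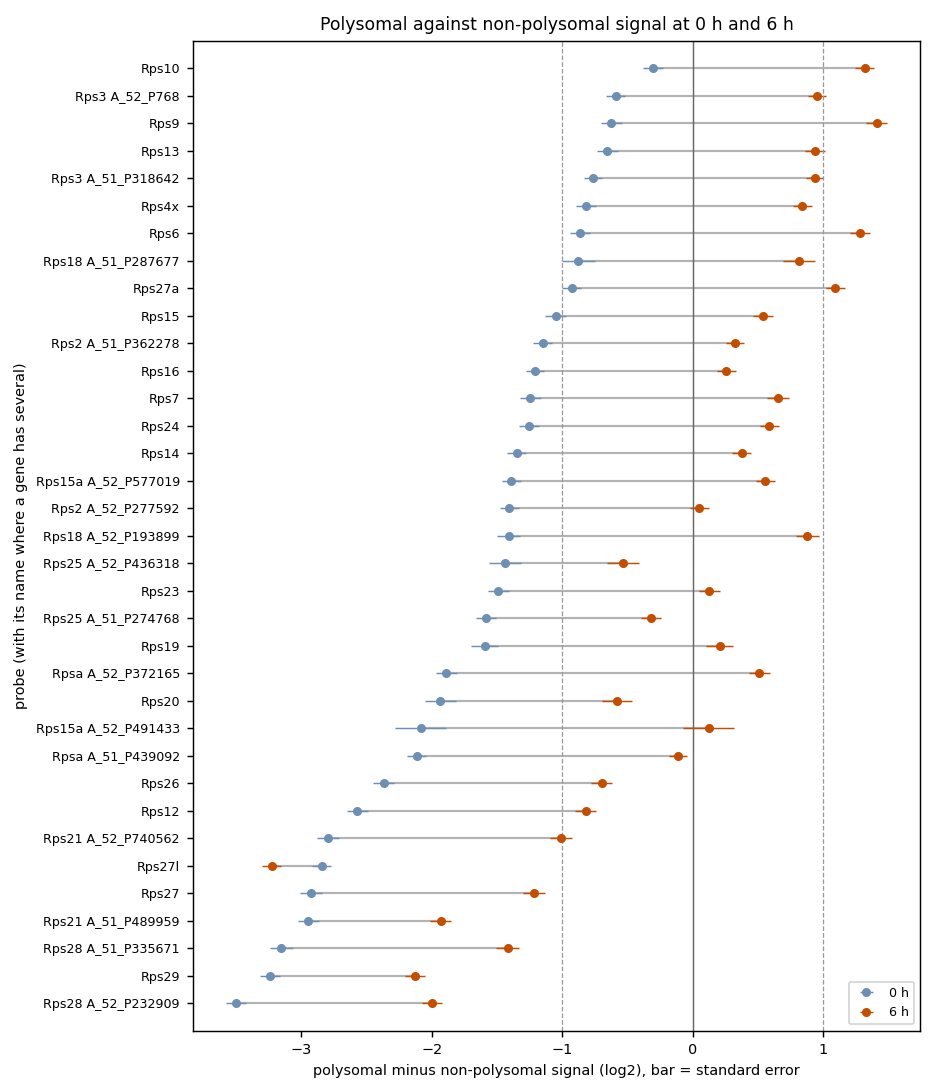
Polysomal minus non-polysomal signal (log2) of 35 member probes at 0 h (blue) and 6 h (orange), ordered by the value at 0 h, with standard errors as bars and dashed lines at a 2-fold difference. All of them start left of balance, and all but Rps27l move to the right, the lowest lines of Rps28, Rps29, Rps21 and Rps27 without crossing it.

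Rpsa, also known as the laminin receptor precursor, joins the subunit late in its assembly. Probe A_51_P439092 gave 14.11, 14.21 and 14.20 in the non-polysomal and 11.98, 12.15 and 12.04 in the polysomal fraction at 0 h. After induction the non-polysomal arrays gave 14.58, 14.60 and 14.54 and the polysomal arrays 14.50, 14.39 and 14.51. The difference between polysomal and non-polysomal signal was -2.12 at 0 h and -0.11 at 6 h (adjusted p = 0.188 by limma) and M was 2.01. The dimmer probe A_52_P372165 had an M-value of 2.40. Its signal was 8.61, 8.51 and 8.48 in the non-polysomal and 6.62, 6.75 and 6.56 in the polysomal fraction at 0 h, and 9.03, 9.11 and 8.98 and 9.57, 9.45 and 9.63 in that order at 6 h. There the polysomal arrays overtook the non-polysomal ones at 6 h.

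Rps18, a head protein close to the bound tRNAs and to the joint with the large subunit, was among the brightest members. On probe A_52_P193899 it gave 17.05, 17.12 and 17.01 in the non-polysomal and 15.50, 15.82 and 15.62 in the polysomal fraction at 0 h. After induction it gave 17.29, 17.39 and 17.41 in the non-polysomal and 18.21, 18.26 and 18.26 in the polysomal fraction. M was 2.29 (SE 0.12). The brighter probe A_51_P287677 had a lower M-value, 1.69 (SE 0.18). Its polysomal arrays read 17.26, 17.51 and 17.01 at 0 h and 18.81, 19.11 and 19.02 at 6 h, while its non-polysomal arrays stayed between 18.08 and 18.23 at both times. The gap between the probes was 0.60. Its standard error of 0.22 treats the probes as independent, although they were read on the same arrays, so the gap was not tested.

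Rps6 is the protein that the S6 kinases phosphorylate after insulin and serum. Its signal was 14.76, 14.79 and 14.71 in the non-polysomal and 13.75, 13.96 and 13.95 in the polysomal fraction at 0 h. After induction the values were 14.95, 14.92 and 14.88 in the non-polysomal and 16.22, 16.13 and 16.25 in the polysomal fraction. The non-polysomal change of 0.17 had an adjusted p of 0.116 by limma, while the polysomal fraction rose by 2.31 and M was 2.15 (SE 0.11, adjusted p = 1.45e-06). None of the 17 probes of 10 Rps6k genes was called in M, where 12.1% of all probes were called higher and 1.32% lower.

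Rps27l departed most from the common pattern. It is a paralog of Rps27 that differs from it in few residues and is known as a p53-responsive gene. Its signal was 16.18, 16.18 and 16.13 in the non-polysomal and 13.21, 13.42 and 13.32 in the polysomal fraction at 0 h. After induction it read 17.12, 17.10 and 17.09 in the non-polysomal and 13.82, 13.86 and 13.94 in the polysomal fraction. Both fractions were thus higher at 6 h without overlap, by 0.94 in the non-polysomal and by 0.56 in the polysomal fraction, and neither reached 2-fold. The polysomal deficit grew from 7.19-fold to 9.37-fold. M was -0.38 (SE 0.10, adjusted p = 0.0138 by limma), with replicate values of -0.33, -0.48 and -0.34, where the lowest replicate value of any other member was 0.75. The adjusted p ran from 1.3e-06 to 0.51 over 28 alternatives and was 0.078, 0.13 and 0.12 without replicate numbers 1, 2 and 3, and M was 0.07 when only the dimmer spike-ins set the scale. Its distance from the other members does not depend on such an offset.

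Rps27 itself had an M-value of 1.71, close to the members' median. Its non-polysomal arrays gave 17.23, 17.19 and 17.24 at 0 h and 18.16, 18.16 and 18.19 at 6 h. Its polysomal arrays gave 14.14, 14.42 and 14.32 at 0 h and 16.90, 16.91 and 17.05 at 6 h. The non-polysomal changes of the paralogs were alike, 0.95 for Rps27 and 0.94 for Rps27l, and the polysomal changes were 2.66 and 0.56. Near-identical transcripts and processed pseudogenes, of which ribosomal protein genes have many, could share signal between probes, so the values of close copies are uncertain.

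Rps25, which several viral internal ribosome entry sites need, held the next lowest place. Probe A_51_P274768 gave 15.34, 15.42 and 15.36 in the non-polysomal and 13.66, 13.91 and 13.80 in the polysomal fraction at 0 h, and 16.24, 16.29 and 16.24 and 15.89, 15.97 and 15.96 in that order at 6 h. Its M-value was 1.27 (SE 0.11). The dim probe A_52_P436318 gave 6.82, 6.88 and 6.83 in the non-polysomal and 5.17, 5.63 and 5.42 in the polysomal fraction at 0 h, and 8.38, 8.35 and 8.30 and 7.62, 7.84 and 7.95 at 6 h. Its M-value of 0.90 (SE 0.17, adjusted p = 0.00262 by limma) missed the call on size, and it was 1.01 and called without replicate 2 of the polysomal fraction at 0 h. The dim probe was also called with a line through the spike-ins (1.63) and with the dimmer spike-ins (1.35). Rps25 was the only one of 9 genes with several probes whose probes differed in the call of M, and the mean of its probes, 1.08, was called. The brighter probe lost the call with 0.84 under 75th percentile scaling, 0.62 under quantile normalization, 0.81 with the brighter spike-ins and 0.99 with normexp over all spots. The adjusted p of the dim probe ran from 1.9e-05 to 0.17 over 28 alternatives and was 0.077 without replicate number 3.

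Rps21, a small protein of the body next to Rpsa, gave the largest spread between probes of a gene. Probe A_51_P489959 read 16.32, 16.46 and 16.44 in the non-polysomal and 13.40, 13.59 and 13.38 in the polysomal fraction at 0 h, and 17.72, 17.63 and 17.67 and 15.68, 15.75 and 15.78 at 6 h. Its M-value of 1.01 lay at the limit of the call and ran from 0.94 to 1.08 when arrays were left out, with the call lost without replicate number 3, without replicate 2 or 3 of the non-polysomal and 1 or 3 of the polysomal arrays at 0 h, and without replicate 2 of the non-polysomal or 3 of the polysomal arrays at 6 h. The call was also lost under 75th percentile scaling (0.59), quantile normalization (0.44) and the brighter spike-ins (0.56). Normexp lost it too, with 0.74 over all spots and 0.97 without spots of uneven background. A line through the spike-ins and the dimmer spike-ins kept it, with 1.03 and 1.47. Probe A_52_P740562 read 17.18, 17.13 and 17.17 and then 14.22, 14.51 and 14.37 at 0 h, and 17.61, 17.62 and 17.66 and then 16.62, 16.54 and 16.72 at 6 h. Its M-value was 1.79. The probes shared the polysomal rise, 2.28 and 2.26, and differed in the non-polysomal rise, 1.27 and 0.47.

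Rps29, a small zinc-binding protein of the head, and Rps28, also of the head, resembled Rps21. Rps29 gave 16.23, 16.26 and 16.30 in the non-polysomal and 12.92, 13.11 and 13.04 in the polysomal fraction at 0 h. After induction it gave 17.33, 17.31 and 17.31 in the non-polysomal and 15.15, 15.10 and 15.31 in the polysomal fraction. The polysomal arrays rose by 2.16 and still lay 4.38-fold below the non-polysomal arrays. The Rps28 probes rose by 2.38 and 2.58 in polysomes and remained lower there by 2.67-fold and 4.00-fold at 6 h.

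Grouped by their place in the subunit, a grouping made after the values were seen, head and body proteins had similar medians. The head had 18 probes of 14 genes with a median M-value of 1.66, of which 17 were called. The body had 21 probes of 15 genes with a median of 1.73, all of them called. Of all probes 12.1% were called higher in M. Rps27l was kept apart from both as a paralog. The polysomal rise had medians of 2.20 and 2.23. The head spanned -0.30 to -3.50 in its position at 0 h and the body -0.63 to -2.95.

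Of the remaining head genes, those named here had M-values of 1.35 (Rps20), 1.47 (Rps16), 1.54 and 1.70 (Rps3), 1.59 (Rps15), 1.62 (Rps10), 1.75 (Rps12), 1.80 (Rps19) and 2.02 (Rps27a). Rps19 is among the genes mutated in Diamond-Blackfan anemia. Rps20 was the least even of them, since its polysomal arrays at 6 h read 17.66, 17.28 and 17.72. The remaining body genes named here had M-values of 1.46 and 1.48 (Rps2), 1.59 (Rps13), 1.62 (Rps23), 1.66 (Rps4x), 1.67 (Rps26), 1.73 (Rps14), 1.84 (Rps24), 1.90 (Rps7), 1.95 and 2.21 (Rps15a) and 2.04 (Rps9). Rps2 and Rps23 lie close to the site where codons are read, and Rps14 lies on the platform of the subunit. Probes of a gene agreed within 0.02 for Rps2 and within 0.16 for Rps3, and the median spread over the 9 genes was 0.26.

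Small subunit proteins with other symbols behaved in the same way by value. Rps3a1 had M-values of 2.29 and 2.30, Fau, which encodes a ubiquitin-like fusion with a 40S protein, had 1.61, and Rack1, the scaffold on the head, had 1.71 and 2.53. All 5 of these probes were called higher, against 12.1% of all probes, and Rps27rt was not analysed here. The transcribed pseudogene Rps4l, with signals between 3.36 and 3.92, had 0.50.

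The large subunit proteins gave similar figures. M was called higher for 65 of 72 probes, against 12.1% of all probes, with a median of 1.78. At 6 h 17 of the large subunit probes were higher in polysomes and 3, those of Rpl41, Rpl39 and Rpl35a, were lower. Of all probes 37.3% were called higher there and 6.42% lower. Rpl41, which encodes the smallest ribosomal protein, came nearest to Rps27l, with an M-value of 0.06 and a difference between polysomal and non-polysomal signal of -3.66 at 0 h and -3.60 at 6 h. The mitochondrial small subunit proteins are made in the cytosol but serve the mitochondrial ribosome. Their median M-value was 0.63, where that of all probes was 0.49, and 7 of 43 probes were called higher, against 12.1% of all probes. No test of the difference between these lists was made.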

How the data were processed

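The 12 RNA samples, 3 for each of 4 groups, were hybridized to Agilent mouse arrays in a single color and grouped by time and fraction as labelled. The authors added spike-in RNA, and Feature Extraction gave the deposited Cy3 intensity of each spot, background-subtracted and not scaled between arrays. The authors also deposited log2 values per probe, used as an alternative. Here the background-subtracted intensity was taken to log2, outlier spots were left out, spots of a probe were averaged, and each array was shifted by the mean of 10 spike-in transcripts. Low signals therefore depend on the background estimate and every M-value on the spike-ins. Symbols came from RefSeq accessions (GRCm38.p6) for 26690 of 41174 probes. limma 3.58.1 in R 4.3.3 (data.table version 1.17.8) fitted the 4 groups, with Benjamini-Hochberg adjustment over all probes. The number of arrays limits the precision.

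Values on every array are given for the 3 genes with the highest and the 3 with the lowest M, for Rps18, Rpsa and Rps6, for probes over 1 log2 unit from the members' median M, and for genes whose probes differ in the call. Some items that these rules cover are not reported here and enter the counts, medians and ranges only. Rps27, Rps28 and Rps29, and Rps20 in part, were added after their values were seen. The members and lists were chosen with earlier results of these data known. The steps were tested on simulated data. Alternatives were other scalings, other background corrections, a filter on dim probes, outlier spots kept, a variance trend, the replicate block, gene means and leaving out arrays.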

Additional observations from a re-analysis of the deposited data

Results flagged for a closer look

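The change over time differed between the fractions, by the interaction term M of the limma fit with an adjusted p below 0.05, for all 40 member probes. Of all probes 32.0% passed this limit with a higher and 4.01% with a lower M. Without replicate number 3 the adjusted p was 0.077 for the dim Rps25 probe, and without any one number that of Rps27l was 0.078 to 0.13. For 39 of the member probes the change was larger in the polysomal fraction. For Rps27l it was smaller there, with M of -0.38. Groups of 3 arrays were too small for a test of single outlying arrays.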

How the results depend on the processing

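Of the counts of called members, that of M remained between 34 and 39 of 40 under 75th percentile scaling, a line through the spike-ins, offsets from either part of the spike-ins, the authors' log2 values and the settings not named next. Under these settings 3.35% to 63.4% of all probes were called higher in M. After quantile normalization 16 members were called higher in M, 24 in the polysomal and 2 in the non-polysomal fraction. The shares of all probes called higher were 3.08%, 7.78% and 8.15% in that order. In polysomes at 6 h 0 members were higher and 14 lower (15.6% and 13.6% of all probes). With 75th percentile scaling 0 were higher and 19 lower at 6 h (12.3% and 22.2% of all probes). The brighter spike-ins alone gave 1 higher (28.5% of all probes) and the dimmer alone 15 (49.1%). With normexp over all spots 2 were called in M, against 0.243% of all probes. That fit gave raised corrected intensities on 3 of the arrays. A version, chosen after seeing the data, that left out spots of uneven background gave 36, against 6.11% of all probes. Over gene means 29 of 30 genes were called in M, against 11.5% of all gene means. The M-value of Rps27l reversed to 0.07 with the dimmer spike-ins. The median M-value of all probes was 0.49 with the spike-in offset, 0.06 with 75th percentile scaling, 0.00 with quantile normalization and 1.42 with a line through the spike-ins. The members lay above it by 1.21, 1.21, 0.94 and 0.23 in that order. With normexp over all spots the median was 3.20 over all probes and 1.42 in the members, and 0 of 40 members lay above the former. The cause of these differences was not tested.

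Leaving out arrays gave 37 to 39 members called in M, 39 to 39 in the polysomal and 6 to 6 in the non-polysomal fraction, 28 to 31 lower at 0 h, 6 to 6 higher and 6 to 7 lower at 6 h. The replicate number, which is also the slide, was fitted as a block and changed none of these counts (38 in M). Deviations of arrays with the same number correlated by -0.081 to 0.209 (median 0.048), and those with different numbers by -0.189 to 0.119 (median -0.028). These ranges overlap and do not settle whether the numbers pair the samples. The main fit left pairing out. The 5 dimmer spike-ins were lower by 0.76 to 0.91 on the polysomal arrays at 6 h and the 5 brighter by 0.02 to 0.28, which limits how firmly the level of M is known for bright probes.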

Other observations

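The factors that assemble the 40S subunit in the nucleolus and cytoplasm were measured on the same arrays. Of their 58 probes of 34 genes, 49 were higher in the polysomal fraction at 0 h (27.3% of all probes), with a median difference of 1.92. Over time 42 rose in the polysomal and 31 in the non-polysomal fraction (19.2% and 8.12% of all probes), and M was called higher for 12 and lower for 1 (12.1% and 1.32%), with a median of 0.62. The endonuclease gene Nob1 had an M-value of 1.04 and its partner Pno1 one of 1.03, while Tsr1 rose by 2.49 and 2.40 in the polysomal and by 1.80 and 1.77 in the non-polysomal fraction. Of 29 probes of 14 mTORC1 and TOP regulator genes, 1 was called in M, a probe of Larp1 with 1.06. Of all probes 12.1% were called higher and 1.32% lower. The 28 not called included the 4 other probes of Larp1 with 0.37 to 0.89.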
